A study of Homo sapiens with 8 samples.

Results

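The genes of cholesterol and fatty acid synthesis were followed in HCT116 and NCI-H716, a pair of human colorectal cancer (CRC) cell lines, with and without the small molecule Z325 (ZINC000101867325). The members were chosen by name, as 31 genes of sterol and fatty acid synthesis under the SREBP transcription factors. Earlier results of these data were known when they were chosen. The NCI-H716 tables listed all 31 among 63241 genes. The HCT116 table used here covers chromosomes 1 to 8 and the start of chromosome 9, and it listed 13 of the 31 among 28043 genes, so the other 18 have NCI-H716 values only. Z325 was picked by docking as a candidate inhibitor of the fibroblast growth factor receptors, and the comparison asks how the transcripts of this pathway stood after treatment. Each combination of line and treatment had 2 libraries, and the 4 groups were HCT116 control, HCT116 treated with Z325, NCI-H716 control and NCI-H716 treated with Z325. The sample labels call the treated cells Test and name neither vehicle, dose nor time, and the study's methods state that the compound was dissolved in DMSO. Each reaction was made from about 100 cells by full-length cDNA amplification, and each line is a single established tumor line. The study calls the libraries biological duplicates, and the p-values below measure only the spread between these libraries.

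Cells build cholesterol from acetyl-CoA through mevalonate, the isoprenoid diphosphates, squalene and lanosterol, and the fatty acid enzymes draw on the same acetyl-CoA pool. SREBP proteins are held in the endoplasmic reticulum by INSIG proteins when sterol is plentiful, and they move to the Golgi, are cut there and switch on most genes of both branches when sterol is short. Tumor cells, those of the colon included, often run these pathways at a high rate because dividing cells need membrane lipids.

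Counts summed over the listed genes ran from 3434620 to 13396225 per library in HCT116, with Z325 replicate 2 the shallowest. In NCI-H716 they ran from 10210239 to 19738840. The HCT116 sums cover only the part of the genome in its table. CPM and FPKM of HCT116 were scaled to counts from that part, so their levels cannot be set against those of NCI-H716. Epithelial identity was checked with fixed marker lists. In HCT116, EPCAM was at 1424 to 1655 CPM (read counts scaled to library size after TMM normalization) in all 4 libraries, while the intestinal markers CDX1, VIL1 and GPA33 were at or below 0.573 CPM. The epithelial transcription factor ELF3 was at 14.0 and 14.3 CPM in control and 3.44 and 1.72 CPM in treated HCT116 cells, a log2 fold change of −2.34 (adjusted p = 0.0205 by edgeR). In NCI-H716, KRT8 and KRT18 lay between 270.5 and 361 CPM and CDX2 between 13.3 and 17.5 CPM, whereas CDH1 was at or below 0.530 CPM. The intestinal gene VIL1 lay lower in treated NCI-H716 cells, at 17.9 and 24.1 against 11.6 and 11.7 CPM (−0.85, unadjusted p = 0.00529 by edgeR). Of the other cell types checked, the 5 endothelial markers summed to 0.388 CPM or less in each library of NCI-H716. The 6 blood cell markers summed to 4.77 and 7.37 CPM in control and 8.55 and 9.05 CPM in treated cells of that line, with PTPRC at or below 0.0764 CPM. Among them the globin HBB lay higher in treated cells, at 1.59 and 3.30 against 4.89 and 7.69 CPM (1.39, unadjusted p = 0.0107 by edgeR). The 6 fibroblast markers summed to 521 and 494 CPM in control and 512 and 471 CPM in treated NCI-H716 cells. Nearly all of that was COL3A1, which lay higher in treated cells (244 and 265 against 311 and 353 CPM, unadjusted p = 0.0341 by edgeR), and LUM, which lay lower (277 and 226 against 199 and 117 CPM, unadjusted p = 0.0173 by edgeR). COL1A1, COL1A2, DCN and PDGFRB were at or below 2.52 CPM. In HCT116 the 6 blood, fibroblast and endothelial markers listed were each at or below 1.72 CPM. The part of these markers in the results below was not tested. In libraries made from many cells, fewer expressing cells and less RNA per cell cannot be told apart.

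Promoters are shown for the members on which the results turn, as RefSeq gives the 250 bases before the start site on GRCh38.p14, 5′ to 3′ on the strand of the gene. MSMO1 (chr4:165327419-165327668, plus strand) was the only member that edgeR called in a cell line. INSIG2 (chr2:118088221-118088470, plus strand) lay higher in both lines by CPM, without an edgeR call in either. SREBF1 (chr17:17836987-17837236, minus strand) and ACACA (chr17:37406837-37407086, minus strand) had the smallest p-values in NCI-H716. SREBF2 (chr22:41832855-41833104, plus strand) was the only member whose window held the letters of the sterol regulatory element. Capitals mark CCAAT (the NF-Y box), GGGCGG (the SP1 box) and TCACNCCAC (a sterol regulatory element), read on either strand.
MSMO1: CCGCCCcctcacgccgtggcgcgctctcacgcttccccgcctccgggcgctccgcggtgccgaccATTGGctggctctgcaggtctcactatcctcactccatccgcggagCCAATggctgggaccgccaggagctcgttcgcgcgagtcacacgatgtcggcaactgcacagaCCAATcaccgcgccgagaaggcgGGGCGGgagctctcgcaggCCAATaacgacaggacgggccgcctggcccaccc
INSIG2: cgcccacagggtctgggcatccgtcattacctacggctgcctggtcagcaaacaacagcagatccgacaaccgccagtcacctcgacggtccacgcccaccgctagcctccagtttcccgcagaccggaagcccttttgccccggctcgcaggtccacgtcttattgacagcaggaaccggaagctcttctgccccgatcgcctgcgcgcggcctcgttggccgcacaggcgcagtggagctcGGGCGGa
SREBF1: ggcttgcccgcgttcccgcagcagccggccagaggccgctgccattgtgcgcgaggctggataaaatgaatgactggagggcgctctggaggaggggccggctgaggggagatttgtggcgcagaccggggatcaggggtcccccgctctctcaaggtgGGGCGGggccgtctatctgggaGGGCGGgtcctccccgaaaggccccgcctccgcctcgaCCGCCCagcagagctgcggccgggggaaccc
ACACA: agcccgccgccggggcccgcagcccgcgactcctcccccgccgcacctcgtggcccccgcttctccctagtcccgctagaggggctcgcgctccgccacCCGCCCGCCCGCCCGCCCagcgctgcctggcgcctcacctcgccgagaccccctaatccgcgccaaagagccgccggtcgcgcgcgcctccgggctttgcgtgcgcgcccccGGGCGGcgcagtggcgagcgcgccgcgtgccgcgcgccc
SREBF2: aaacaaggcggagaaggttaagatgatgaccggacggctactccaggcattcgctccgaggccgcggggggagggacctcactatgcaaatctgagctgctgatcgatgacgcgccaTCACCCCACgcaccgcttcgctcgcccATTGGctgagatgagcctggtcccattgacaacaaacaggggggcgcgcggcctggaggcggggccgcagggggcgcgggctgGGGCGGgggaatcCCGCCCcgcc

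RefSeq promoters were matched to 27 of the 31 members, leaving ACAT2, FDFT1, SQLE and FASN. CCAAT stood in 18 of the 27 windows, or 66.7%, against 32.0% of 35116 promoters of the same length. GGGCGG stood in 25, or 92.6%, against 42.6%. TCACNCCAC stood in 1, or 3.70%, against 0.883%, and in SREBF2 it began 133 bases before the start site. The comparison promoters were not limited to 1 per gene, nor matched to the members by gene type or base content. MSMO1 carried 4 CCAAT and 2 GGGCGG matches, whereas INSIG2, SREBF1 and ACACA held no CCAAT and 1, 3 and 5 GGGCGG matches. Some of the 5 in ACACA overlap each other, and no match of CCAAT overlapped one of another motif in the windows shown. Natural sterol regulatory elements vary in sequence, so these letters describe the windows and locate no binding site.

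In control cells the members spanned more than 2 orders of magnitude per transcript length. Among the 13 members tested in both lines, the highest gene differed between the lines. Levels between genes were compared as FPKM (fragments per kilobase, scaled to library total), which for HCT116 was computed here from the counts and gene lengths. In HCT116, MSMO1, which oxidizes the methyl groups that are removed from lanosterol, stood highest at 296 and 270.1 FPKM, followed by the acetyl-CoA thiolase ACAT2 at 148 and 179 FPKM. INSIG1 (56.0 and 63.1 FPKM) and FDPS (50.9 and 66.6 FPKM) came next, and their ranges overlapped. SQLE, HSD17B7, INSIG2, ELOVL6 and STARD4 followed without overlap between neighbours, from 35.1 down to 14.1 FPKM, and PMVK and HMGCS1, which did overlap, ran from 8.63 to 4.02 FPKM. CYP51A1 was at 2.61 and 3.40 FPKM and squalene synthase FDFT1 was lowest, at 0.894 and 1.15 FPKM.

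In NCI-H716 control cells, squalene epoxidase SQLE stood highest at 581 and 734 FPKM, followed by the sterol isomerase EBP at 365 and 359.6 FPKM. FDPS (165 and 161 FPKM) and ACAT2 (104 and 102 FPKM) came next, and these 4 did not overlap. ACLY and IDI1 overlapped each other between 55.9 and 73.4 FPKM, and FDFT1 (46.1 and 45.6 FPKM) and SCD (35.2 and 40.8 FPKM) lay below them. A band of 13 members from CYP51A1 to SREBF1 followed, with means from 32.3 down to 7.93 FPKM and with overlap between most neighbours. HMGCS1, PMVK, ACSS2, MVD, FADS1, MVK, SREBF2, LSS and FASN had means from 7.35 down to 1.66 FPKM. The lines were quantified in different ways and the level of a gene between them was not tested.

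**Figure D1:**
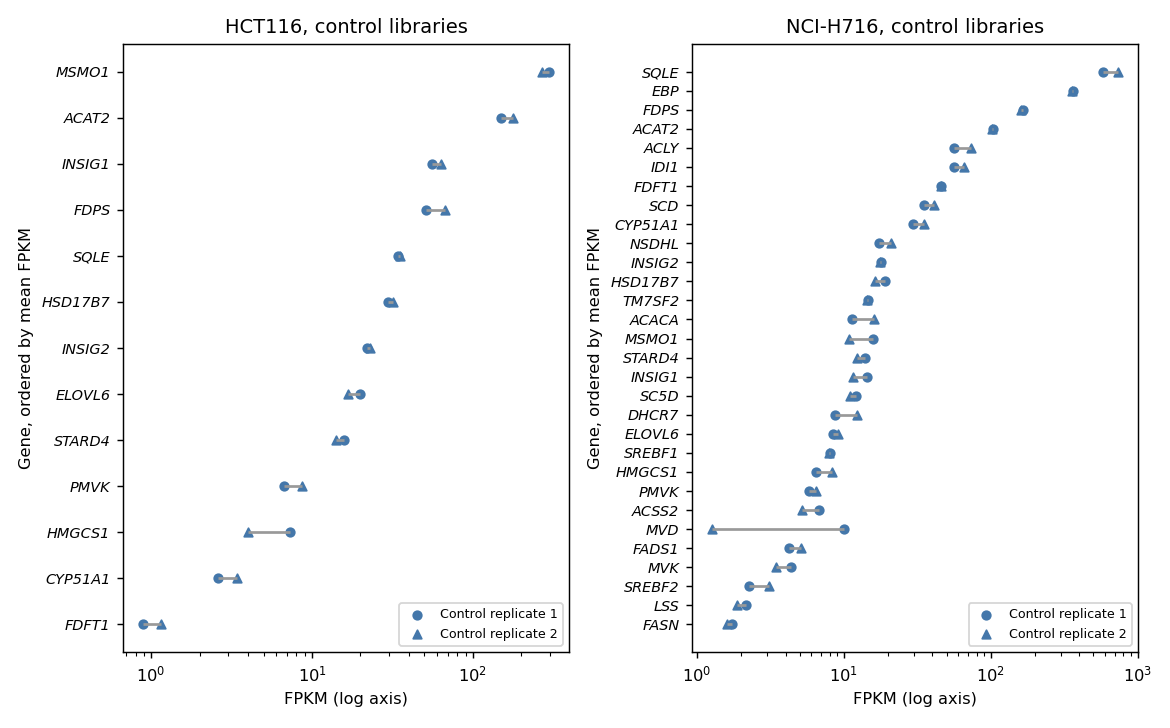
FPKM of each tested member in the 2 control libraries of HCT116 (left, 13 genes) and NCI-H716 (right, 30 genes), ordered by mean on a log axis, with a line joining the replicates. MSMO1 heads the HCT116 panel at 296 and 270.1 FPKM, SQLE heads the NCI-H716 panel at 581 and 734 FPKM, and MVD has the widest gap between replicates, 9.98 and 1.27 FPKM.

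MSMO1 lay higher in Z325-treated HCT116 cells and was the only member that edgeR called in this line. Of the 13 members tested, 1 was called at an adjusted p under 0.05 by edgeR's quasi-likelihood test, against 5.78% of the 6491 genes tested. At an unadjusted p under 0.05, 4 members were higher, against 11.2% of all genes in that direction, and 0 were lower, against 12.7%. Both treated libraries lay above both controls for 4 members, where 24.8% of all genes did so, and below both for 4, where 29.0% did. The median log2 fold change of the 13 was −0.08, beside −0.03 over all genes tested, and it turned to 0.01 without control replicate 1 and to 0.04 without Z325 replicate 2.

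MSMO1 held 815 and 779 CPM in control and 1646 and 1318 CPM in Z325-treated HCT116 cells. Both treated libraries stood well above both controls. It rose by 0.90 on the log2 scale (standard error, SE, 0.14, 95% interval 0.57 to 1.22, adjusted p = 0.0138 by edgeR), which is 1.86-fold. The direction held in every fit, from 0.71 without Z325 replicate 1 to 1.08 without Z325 replicate 2. The call was lost without control replicate 1 (adjusted p = 0.165) or control replicate 2 (adjusted p = 0.230), fits in which edgeR called 0 genes of the whole table, with 906 and 784 at an unadjusted p under 0.05. It was also missed by limma on log2(FPKM + 1), which put the difference at 0.84 (adjusted p = 0.0613).

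The other 4 sterol enzymes tested in HCT116 were not called. FDFT1, which joins a pair of farnesyl diphosphates into squalene, held 4.48 and 6.06 CPM in control and 8.13 and 80.2 CPM in treated cells, from 62, 79, 104 and 280 counts. The last value stood apart from the other 3 although it came from the shallowest library. Its difference of 3.02 on the log2 scale (SE 0.86, adjusted p = 0.0794 by edgeR) was 0.66 (adjusted p = 0.330) without Z325 replicate 2. HSD17B7, a ketoreductase of the same demethylation, held 137 and 153 CPM in control and 223 and 164 CPM in treated cells. The treated libraries were the higher ones, replicate 2 only slightly, and the log2 fold change was 0.42 (SE 0.18, adjusted p = 0.193 by edgeR). Without Z325 replicate 2 it was called higher by edgeR (0.65, adjusted p = 0.00833), in a fit that called 1094 genes, or 16.9% of the whole table. SQLE lay lower in both treated libraries (142 and 153 against 115 and 136 CPM), at −0.24 (SE 0.16, adjusted p = 0.410 by edgeR). The lanosterol demethylase CYP51A1 held 10.5, 14.3, 12.4 and 4.58 CPM, with the low value in Z325 replicate 2. Its difference of −0.47 (SE 0.46, adjusted p = 0.591 by edgeR) was 0.04 without that library.

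Among the mevalonate enzymes, 3 of 4 had negative fold changes and 0 passed edgeR's test with all libraries in the fit. ACAT2 held 378 and 476 CPM in control and 364 and 294 CPM in treated cells, a log2 fold change of −0.37 (95% interval −0.75 to 0.0024, adjusted p = 0.211 by edgeR). PMVK, the kinase that follows MVK, went from 6.44 and 8.74 to 4.85 and 2.29 CPM, the last from 8 counts, at −1.001 (SE 0.47, adjusted p = 0.241 by edgeR). Both genes lay below both controls in both treated libraries. For FDPS, which makes farnesyl diphosphate, the libraries overlapped at 182, 250.5, 202 and 134 CPM, and HMGCS1, the synthase that feeds the mevalonate pathway, overlapped at 46.9, 26.9, 43.0 and 49.0 CPM. These last values gave −0.35 (SE 0.22) and 0.31 (SE 0.29). Without Z325 replicate 1, the shallow replicate 2 alone stood for the treated group. The log2 fold changes were then −0.55 for ACAT2, −1.73 for PMVK, −0.71 for FDPS and −1.45 for CYP51A1. In the same fit FDFT1 was at 3.91 and MSMO1 at 0.71.

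Of the INSIG pair, INSIG2 lay higher and INSIG1 lower in treated HCT116 cells. INSIG2 held 83.8 and 91.0 CPM in control and 108 and 121 CPM in treated cells, at 0.38 (SE 0.17, unadjusted p = 0.0477 and adjusted p = 0.204 by edgeR). INSIG1, whose transcription SREBP itself drives, held 197 and 233 CPM against 148 and 193 CPM, at −0.34 (SE 0.17, adjusted p = 0.264 by edgeR). The sterol carrier STARD4 was level at 86.6, 81.1, 85.9 and 84.5 CPM, a difference of 0.02 with a 95% interval from −0.36 to 0.41. The elongase ELOVL6, the only fatty acid gene listed for this line, overlapped at 139.7, 123, 131 and 117 CPM, with an interval from −0.44 to 0.28.

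**Figure D2:**
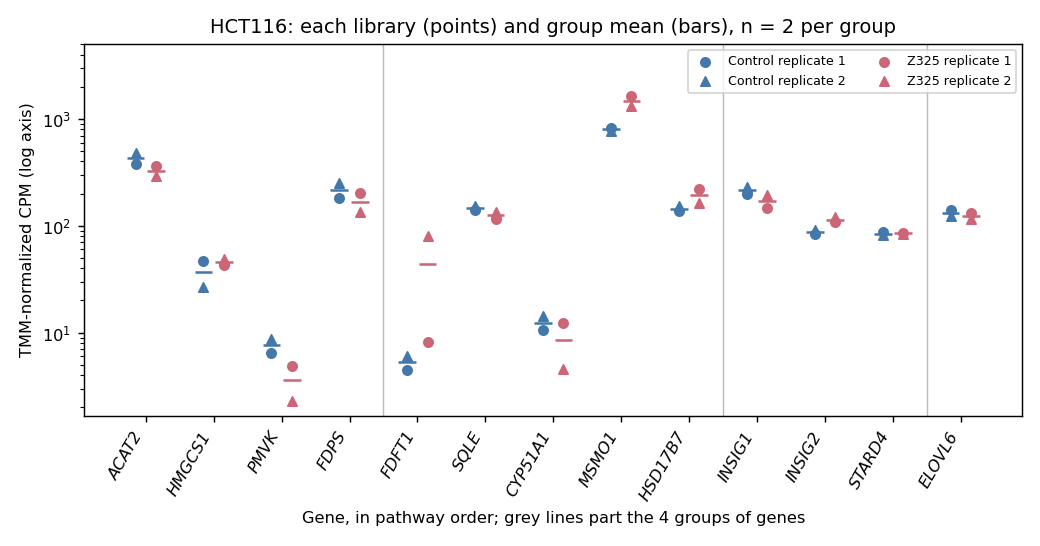
TMM-normalized CPM of the 13 members listed for HCT116, on a log axis in pathway order, with control libraries in blue, Z325-treated libraries in red, circles for replicate 1, triangles for replicate 2 and bars for the mean of 2. The MSMO1 groups are clearly apart (815 and 779 against 1646 and 1318 CPM), and the mean of treated FDFT1 is set by replicate 2 at 80.2 CPM.

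By CPM in NCI-H716, SREBF1, the fatty acid synthesis enzymes ACACA and FASN and the sterol pathway enzymes FDPS and EBP lay lower after Z325. HMGCS1, SQLE, INSIG2 and FADS1 lay higher, by 1.32 to 1.65-fold. None of these genes passed adjustment by edgeR. Of the 30 members tested, edgeR called 0 at an adjusted p under 0.05, against 0.502% of the 14142 genes tested, and DESeq2 called 1, SREBF1. Over all genes the calls of edgeR were 57 higher and 14 lower, and those of DESeq2 173 and 191. At an unadjusted p under 0.05, 4 members were higher, against 7.59% of all genes, and 5 were lower, against 9.27%. The treated libraries lay above both controls for 6 members, where 24.3% of all genes did so, and below both for 9, where 25.1% did. The median log2 fold change of the 30 was −0.13, beside −0.01 over all genes tested, and it was −0.06 without Z325 replicate 2. The remaining member, the desaturase FADS2, had 1, 0, 0 and 2 counts and was not tested.

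SREBF1 encodes the SREBP that favours fatty acid genes. It held 26.5 and 24.2 CPM in control and 13.4 and 14.2 CPM in Z325-treated NCI-H716 cells, so that the groups were well apart and the replicates close. The log2 fold change was −0.87 (SE 0.21, unadjusted p = 0.0020 and adjusted p = 0.118 by edgeR). Its FPKM lay closer between the groups, at 8.01 and 7.85 against 6.33 and 6.99, and is taken up with transcript lengths below. SREBF2, which encodes the SREBP that favours sterol genes, overlapped at 7.35, 10.5, 11.1 and 7.94 CPM, with a 95% interval from −0.57 to 0.77. ACACA, the acetyl-CoA carboxylase that commits carbon to fatty acids, held 22.7 and 25.4 CPM against 13.6 and 12.4 CPM. Its groups were apart by as much, at −0.89 (SE 0.22, unadjusted p = 0.00213 and adjusted p = 0.118 by edgeR). FASN, the fatty acid synthase, held 14.3 and 12.9 CPM against 8.93 and 7.44 CPM, at −0.74 (SE 0.25, adjusted p = 0.203 by edgeR).

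Of the other fatty acid genes, FADS1 lay higher and the rest overlapped with their controls. FADS1, a desaturase of polyunsaturated fatty acids, held 15.5 and 19.6 CPM in control and 23.9 and 29.4 CPM in treated cells, at 0.61 (SE 0.23, unadjusted p = 0.0227 and adjusted p = 0.232 by edgeR). Its groups did not overlap. The acetyl-CoA supplier ACLY overlapped at 231, 293, 264 and 258 CPM (95% interval −0.38 to 0.37), as did ACSS2, which uses acetate, at 10.9, 6.89, 10.2 and 6.18 CPM (−0.90 to 0.62). The stearoyl-CoA desaturase SCD overlapped at 179, 202, 175 and 231 CPM (−0.31 to 0.50). ELOVL6 was at 53.5, 56.1, 36.7 and 58.2 CPM, its low value being Z325 replicate 1, with an interval from −0.70 to 0.30.

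In the mevalonate part, HMGCS1 lay higher and FDPS lower. HMGCS1 held 27.1 and 34.8 CPM in control and 42.5 and 57.6 CPM in treated cells, at 0.70 (SE 0.22, unadjusted p = 0.00936 and adjusted p = 0.176 by edgeR). FDPS held 131 and 107 CPM against 82.9 and 74.8 CPM, at −0.59 (SE 0.18, unadjusted p = 0.00718 and adjusted p = 0.168 by edgeR). Neither pair of groups overlapped. ACAT2 also lay below both controls, at 136 and 127 against 101 and 106 CPM (−0.34, SE 0.16, adjusted p = 0.313 by edgeR). The isomerase IDI1 overlapped at 126, 141, 143 and 129.6 CPM, an interval from −0.33 to 0.39. The kinases MVK (4.54, 3.20, 3.28 and 1.36 CPM) and PMVK (4.54, 4.75, 5.12 and 5.78 CPM) and the decarboxylase MVD (2.27, 1.94, 1.91 and 1.46 CPM) were low, with 20 to 115 counts in a library and log2 fold changes of −0.77, 0.23 and −0.33.

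Along the sterol part, SQLE lay higher and EBP lower. SQLE, which puts the oxygen on squalene and limits the flow of the sterol branch, held 1222 and 1349.6 CPM in control and 1645 and 1755 CPM in treated cells, at 0.40 (SE 0.16, unadjusted p = 0.0262 and adjusted p = 0.241 by edgeR). EBP held 293 and 257 CPM against 187 and 193 CPM, at −0.53 (SE 0.16, unadjusted p = 0.00699 and adjusted p = 0.167 by edgeR). Both genes kept treated and control libraries apart. HSD17B7 lay lower in treated cells, at 25.3 and 20.9 against 18.2 and 16.8 CPM (−0.40, SE 0.22, adjusted p = 0.376 by edgeR). The other 8 sterol enzymes overlapped between the groups. FDFT1 (76.5, 73.4, 63.7 and 73.4 CPM), CYP51A1 (86.6, 99.0, 91.4 and 75.9 CPM) and MSMO1 (30.2, 20.9, 28.9 and 17.2 CPM) differed by −0.13, −0.15 and −0.16. The lanosterol synthase LSS (8.53 to 9.995 CPM), the sterol reductase TM7SF2 (15.8 to 18.6 CPM) and the decarboxylating dehydrogenase NSDHL (25.9 to 30.5 CPM) differed by 0.02, 0.09 and −0.07. The late enzymes SC5D (18.9 to 26.3 CPM) and DHCR7 (17.6 to 24.5 CPM) differed by −0.05 and −0.13.

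INSIG2 held 13.8 and 14.3 CPM in control and 26.9 and 19.4 CPM in treated NCI-H716 cells. Both treated libraries were higher, replicate 1 more so, and the log2 fold change was 0.72 (SE 0.24, unadjusted p = 0.0126 and adjusted p = 0.192 by edgeR). INSIG1 lay higher too, at 32.0 and 27.0 against 36.5 and 34.1 CPM, by 0.26 (SE 0.19, adjusted p = 0.531 by edgeR). STARD4 lay lower, at 37.9 and 38.1 against 28.9 and 32.1 CPM, with −0.32 (SE 0.19, adjusted p = 0.421 by edgeR). Without Z325 replicate 1, HMGCS1 (0.90), FDPS (−0.67) and ACACA (−0.95) were called by edgeR at adjusted p-values from 0.00685 to 0.0422, in a fit that called 1406 genes, or 9.94% of the whole table.

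**Figure D3:**
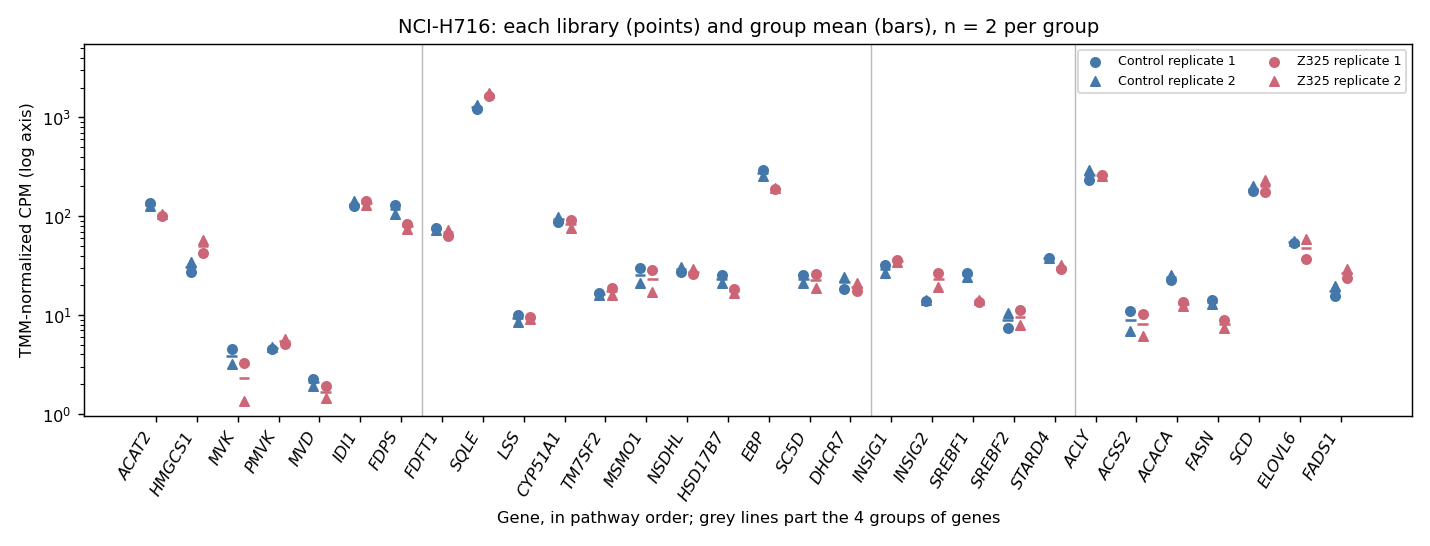
TMM-normalized CPM of the 30 members tested in NCI-H716, on a log axis in pathway order, with control libraries in blue, Z325-treated libraries in red, circles for replicate 1, triangles for replicate 2 and bars for the mean of 2. SREBF1 (26.5 and 24.2 against 13.4 and 14.2 CPM) and ACACA (22.7 and 25.4 against 13.6 and 12.4 CPM) show the widest separation among the lower genes.

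The NCI-H716 tables also give the effective length of each gene, the isoform-weighted length by which RSEM turns counts into FPKM, and for 3 members it changed the reading of the counts. SREBF1 had effective lengths of 3252 and 3126 bases in control and 2104 and 2047 bases in treated cells, a ratio of 0.651. The estimate therefore moved towards shorter transcripts in both treated libraries, and the FPKM was 8.01 and 7.85 in control and 6.33 and 6.99 in treated cells. On log2(FPKM + 1), limma put SREBF1 at −0.22 (adjusted p = 0.718), against −0.87 on the counts. INSIG2 went the other way, from 759 and 818 to 1159 and 1191 bases, a ratio of 1.49. Its FPKM overlapped between the groups at 17.9, 17.6, 22.9 and 16.4, and limma gave 0.12 (adjusted p = 0.846) on the log2(FPKM + 1) scale. MVD had 224 and 1540 bases in control and 127 and 120 bases in treated cells, and its sign turned from −0.33 on the counts to 1.53 on log2(FPKM + 1) (adjusted p = 0.384 from limma). Effective lengths at least 1.4-fold apart with no overlap between the groups, a limit chosen after the values were seen, were found for these 3 of 30 members and for 4.77% of the 14142 genes tested. Of the other members with an unadjusted p under 0.05, ACACA (−0.92 by limma), HMGCS1 (0.89) and SQLE (0.57) had the same direction and a size on log2(FPKM + 1) at or above that on the counts. FDPS (−0.37), EBP (−0.37), FASN (−0.41) and FADS1 (0.41) kept their direction with a smaller size. The added 1 also shrinks ratios between low values. FASN had mean FPKM of 1.66 in control and 1.005 in treated cells, with nearly unchanged effective lengths (ratio 0.996). The isoforms behind these estimates were not analysed here.

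**Figure D4:**
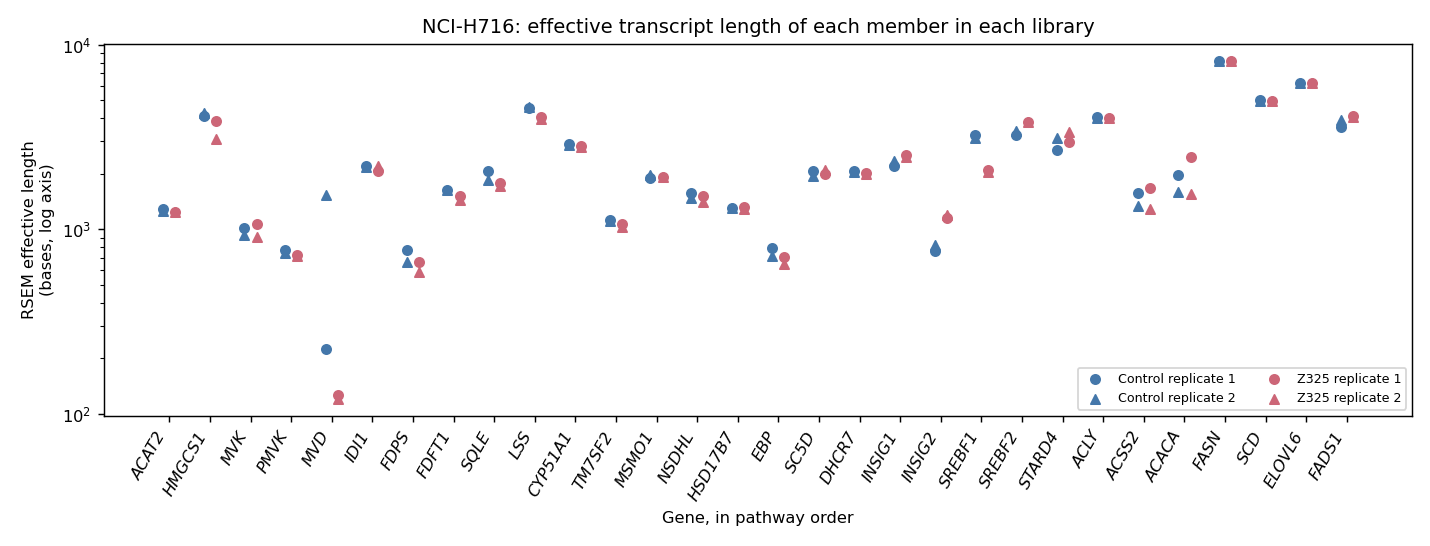
RSEM effective length in bases of the 30 tested members in each NCI-H716 library, on a log axis in pathway order, with control in blue and Z325 in red. SREBF1 is shorter in both treated libraries (ratio 0.651), INSIG2 is longer (ratio 1.49), and MVD is near 120 bases in both treated libraries.

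Side by side, 13 members were tested in both lines. By CPM, INSIG2 was the only member above both controls in both lines, a pattern of 9.89% of the 5014 genes tested in both. ACAT2 was the only member below both controls in both, as were 9.45%. The FPKM of INSIG2 overlapped between the groups in NCI-H716, as given above. HSD17B7 lay higher in HCT116 and lower in NCI-H716, as did 3.73% of all genes, and INSIG1, PMVK and SQLE lay lower in HCT116 and higher in NCI-H716, as did 5.78%. The difference itself was tested as the interaction of line and treatment over all 8 libraries, where 0 of the 13 were called by edgeR at an adjusted p under 0.05, against 0.0654% of 7642 genes. At an unadjusted p under 0.05 there were 5, against 14.3% of all genes, and DESeq2 called 1, MSMO1. The NCI-H716 minus HCT116 difference in log2 fold change was −1.08 for MSMO1 (SE 0.34, adjusted p = 0.212 by edgeR), 0.63 for SQLE (SE 0.20, adjusted p = 0.209) and −0.84 for HSD17B7 (SE 0.29, adjusted p = 0.235). In the same edgeR test, INSIG1 differed by 0.58 (SE 0.26, adjusted p = 0.339). FDFT1 differed by −3.10 (SE 0.95, adjusted p = 0.205 by edgeR), a value resting on a single HCT116 library. For INSIG2 the difference was 0.32 with a 95% interval from −0.30 to 0.95, and for ACAT2 0.02 with an interval from −0.50 to 0.54. The lines were counted by different methods, so cell line and counting cannot be told apart in these differences.

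**Figure D5:**
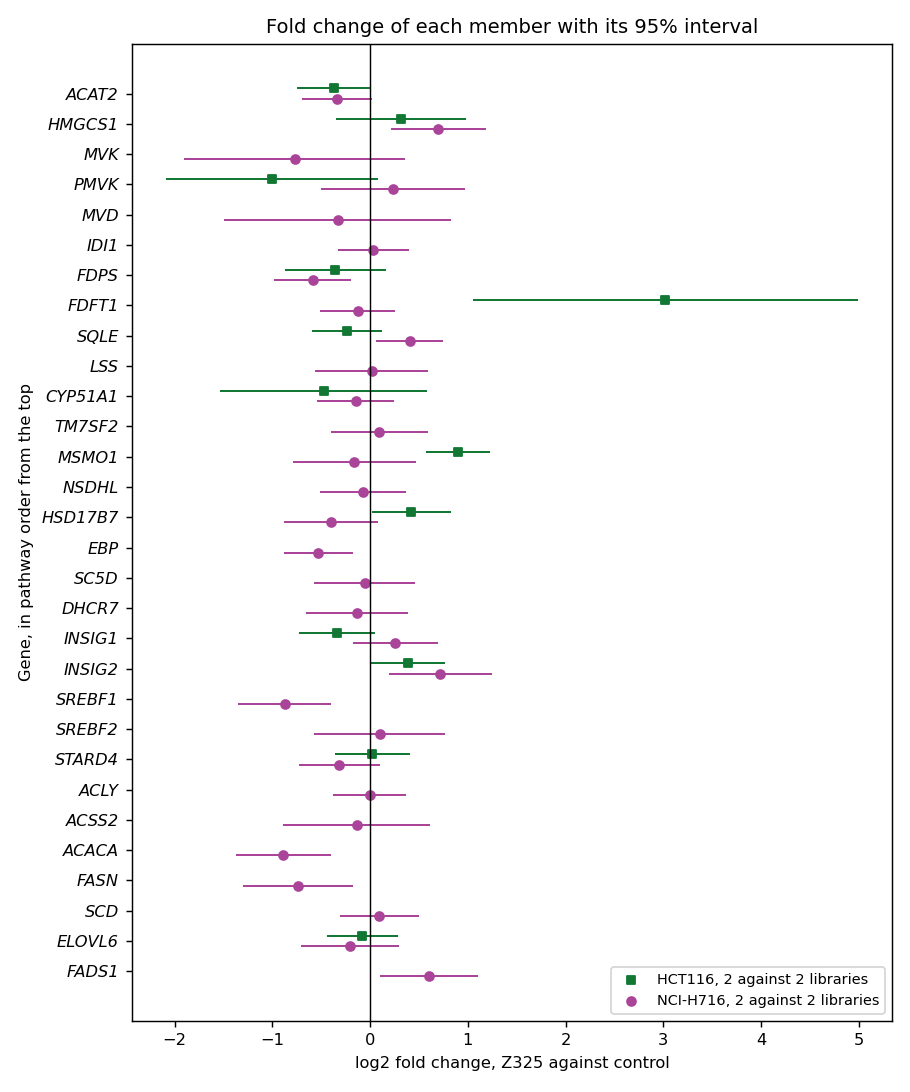
Log2 fold change of each member, Z325 against control, with its 95% interval, for HCT116 (green squares, 13 genes) and NCI-H716 (purple circles, 30 genes). MSMO1 in HCT116 stands at 0.90, SREBF1 and ACACA in NCI-H716 stand at −0.87 and −0.89, and FDFT1 in HCT116 has the widest interval, 1.05 to 4.99.

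Neighbouring pathways were read from 8 fixed lists, and edgeR called 0 of their genes at an adjusted p under 0.05 in either line. At an unadjusted p under 0.05 there were 5 of 29 tested genes in HCT116, against 23.9% of all genes, and 17 of 76 in NCI-H716, against 16.9%. DESeq2 called 2 in HCT116 (GGPS1 and HACD2) and 1 in NCI-H716 (NPC2). In NCI-H716, the list of sterol uptake, transport and esterification held the most genes at an unadjusted p under 0.05. Of its 9 tested genes, 3 had an unadjusted p under 0.05 with a higher level, against 7.59% of all genes, and 2 with a lower one, against 9.27%. Its median log2 fold change was 0.40. NPC2, a soluble cholesterol-binding protein of the lysosome, held 60.7 and 50.5 CPM in control and 110.7 and 94.6 CPM in treated cells, at 0.88 (SE 0.18, adjusted p = 0.0760 by edgeR). NPC1, its membrane partner (0.84), and the lysosomal acid lipase LIPA (0.52) lay higher with it. All 3 kept the groups apart, as did 24.3% of all genes on the higher side. The lipoprotein receptor SCARB1 (−1.04) and the sterol transporter GRAMD1A (−1.13) lay lower. They also kept the groups apart, as did 25.1% of all genes on the lower side. Of 9 tested LXR and efflux genes, 2 were lower at an unadjusted p under 0.05, the sterol exporter ABCG1 (8.56 and 9.31 against 4.58 and 4.62 CPM, −0.95) and the ubiquitin ligase MYLIP (−0.63).

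Further fatty acid genes of NCI-H716 gave 3 of 12 on the lower side and 1 on the higher side with unadjusted p-values under 0.05, against 9.27% and 7.59% of all genes, and these shares serve for the smaller lists too. These were the mitochondrial citrate carrier SLC25A1 (84.4 and 67.5 against 52.3 and 35.1 CPM, −0.80), the elongation enzymes TECR (−1.23) and ELOVL1 (−1.66), and the desaturase SCD5 (0.996). Control replicate 1 stood well above the other libraries for TECR (143 and 63.5 against 54.5 and 34.2 CPM, SE 0.34). The same held for ELOVL1 (23.8 and 9.89 against 8.48 and 2.51 CPM, SE 0.53). The median of that list was 0.23, and 9 of the 12 had positive fold changes. Of the fatty acid activation genes 1 of 7 was lower, SLC27A4 (−1.12), and of the mitochondrial fatty acid synthesis genes 1 of 9, MCAT (−0.64). The lists of SREBP escort and processing genes (RNF139 at 0.40 and UFD1 at −0.56) and of nonsterol branches (NUS1 at 0.42) had 1 or 2 genes each at that p.

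In HCT116 the same lists held few listed genes. SCAP, which escorts SREBP to the Golgi, held 9.91 and 10.7 CPM in control and 5.79 and 5.73 CPM in treated cells, at −0.83 (SE 0.36, adjusted p = 0.198 by edgeR). ERLIN2, a membrane protein of the endoplasmic reticulum, lay higher at 0.66 (adjusted p = 0.1504 by edgeR). The geranylgeranyl diphosphate synthase GGPS1 held 63.8 and 65.5 CPM against 104.4 and 95.4 CPM, at 0.63 (SE 0.17, adjusted p = 0.0698 by edgeR). LBR, a sterol reductase of the nuclear envelope, lay lower at −0.41 (adjusted p = 0.0939 by edgeR), as did the elongation dehydratase HACD2 at −0.54 (adjusted p = 0.0813 by edgeR). The lists of nonsterol branches (7 tested), sterol uptake (1), LXR and efflux (1), fatty acid activation (2) and mitochondrial fatty acid synthesis (4) held 0 genes at an unadjusted p under 0.05 in HCT116.

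Reads of some members cannot be assigned with certainty. The shares that follow are the largest that a member's exon bases have in common with any single other annotated gene. They were CYP51A1 (68.2%), HMGCS1 (37.7%), EBP (36.4%), FDPS (18.6%), ACAT2 (17.2%), IDI1 (15%), SREBF2 (9.1%), SREBF1 (6.8%) and LSS (6.2%). In the others that overlap a gene the share was 5.0% or less. Some members, ACAT2 and LSS among them, overlap more than 1 gene. FDPS has 8 named pseudogenes in the annotation, IDI1 and CYP51A1 have 3 each, HSD17B7 has 2 and SCD has 1. Their values are uncertain to that extent. The NCI-H716 values are expected counts from RSEM, and for the HCT116 counts the handling of shared reads is not given in the sources used here.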

How the data were processed

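RNA-seq libraries were made by SMART-Seq2 from control and Z325-treated HCT116 and NCI-H716 cells, 2 libraries per group. The HCT116 table deposited by the authors gives raw read counts per gene, with positions and lengths, and 4 broken or unfinished lines were left out. For NCI-H716 the authors deposited RSEM output for each library, with an expected count, an effective length, a TPM and an FPKM per gene. The TPM values that the authors deposited were not used, and the FPKM values were used as given. The study's methods name TrimGalore, STAR with GRCh38 and RSEM, whereas the submitters' processing notes list hg38, Bowtie2 2.5.0 and featureCounts, and which made which table is not stated. GENCODE v44 gave symbols for 62666 of the 63241 NCI-H716 gene identifiers.

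Expected counts were rounded to whole numbers, and HCT116 FPKM was computed from the counts, lengths and listed totals. Each line was tested alone in edgeR 4.0.16 with TMM scaling, the filterByExpr filter and quasi-likelihood F tests, unblocked, with Benjamini-Hochberg adjustment over all genes tested, 6491 in HCT116 and 14142 in NCI-H716. The biological coefficient of variation was 0.245 and 0.203. Line and treatment were crossed in 1 fit of all 8 libraries over 7642 genes. Intervals are at 95% and CPM is TMM-normalized. With few counts the precision is limited by counting as well as by the 2 libraries. All 31 members were named, with up to 5 genes of smallest p from each of the 8 pathway lists in each line, and ELF3 and the other markers come from fixed lists. A result for the list of other mevalonate and sterol enzymes in NCI-H716 is not reported here. The members and lists were chosen with earlier results of these data known. Promoter letters were searched in RefSeq sequences of GRCh38.p14.

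Alternatives were DESeq2 1.42.0, limma 3.58.1 on log2 FPKM with a pseudocount of 0.1 or 1, a mean FPKM of at least 1, library size alone, a minimum of 10 counts, no filter, all 8 libraries in 1 fit, thinning to the shallowest library, a replicate block, promoter windows of 300 bases and leaving out each library. The steps were tested on simulated data. Tables were handled in Python 3.11.15 with pandas 2.3.3, figures drawn with matplotlib 3.10.9, and models fitted in R 4.3.3.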

Additional observations from a re-analysis of the deposited data

How the results depend on the processing

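Each group had 2 libraries. Z325 replicate 2 was the shallowest of HCT116, and thinning the others to its depth gave 245 genes higher and 206 lower. Members such as MVD, at 20 to 30 counts a library, carry a large counting error. In all, 81 results were recomputed in 1058 combinations of result and alternative. Of 181 recomputed fold changes of HCT116 members, 155 kept direction and side of the threshold, 10 gained a call, 5 lost it, all of them MSMO1, and 11 turned. In NCI-H716, 350 of 402 kept both, 15 gained a call and 37 turned, and in the difference between the lines 153 of 168 kept both, 3 gained a call and 12 turned. Of 140 recomputed medians of the members and their pathway parts, 16 moved by more than the spread between libraries. The promoter motif counts were the same in windows of 300 bases. MVD turned with its effective lengths, given above, and for the other changes the cause was not tested.

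In HCT116 all genes, 184 higher and 191 lower by edgeR became 402 and 357 with DESeq2, and limma gave 22, 29 and 23 higher and 15, 18 and 12 lower with pseudocounts of 0.1, of 1 and of 1 with a mean FPKM of at least 1. A minimum of 10 counts gave 345 lower and no filter 423 lower. The members called higher were 0 in each limma fit. There were 2, MSMO1 and FDFT1, with all 8 libraries in 1 fit, with a minimum of 10 counts and with no filter. In NCI-H716 all genes, 57 higher and 14 lower became 173 and 191 with DESeq2, 17 and 2 with all 8 libraries in 1 fit, 290 and 487 with no filter, 28 lower with library size alone, and by limma 5 higher in each fit with 1, 1 and 3 lower. Members called lower were 1 with DESeq2, SREBF1, and 2 with no filter, SREBF1 and ACACA. For the difference between the lines, edgeR calls became 53 higher and 79 lower with DESeq2, 11 and 15 with a minimum of 10 counts, 58 and 48 with no filter and 2 lower with library size alone, and the members called lower were 1 with DESeq2 (MSMO1) and 1 with no filter (FDFT1).

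Replicate numbers are shared between the groups, but nothing in the labels says that they mark a common culture or day, and deviations of same-numbered libraries correlated at −0.0308 in HCT116 and 0.198 in NCI-H716. With the replicate number as a block, 2 HCT116 members were called higher (MSMO1 and FDFT1). In NCI-H716 the block gave 1061 genes higher and 1336 lower, 4 members higher and 5 lower, the 9 that had an unadjusted p under 0.05 without it. In the difference between the lines it gave 8 higher and 4 lower.

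Single member values that turned were STARD4 in HCT116 (−0.019 with library size alone, −0.016 and −0.015 by limma with pseudocounts of 0.1 and 1, also with a mean FPKM of at least 1, and −0.028 with no filter). In NCI-H716 they were MVD by limma (1.87 with 0.1 and 1.53 with 1, with or without the mean FPKM limit), FDFT1 by limma (0.0076 in each fit), SREBF2 by limma (−0.096 with 0.1 and −0.072 with 1), ACLY (0.0045 with the replicate block, 0.017 by limma in each fit, 0.0099 with a minimum of 10 counts and 0.014 with no filter), and, thinned to the shallowest library, IDI1 (−0.0071) and LSS (−0.022). In the difference between the lines, ACAT2 was −0.077 with DESeq2 and −0.069 with a minimum of 10 counts.

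With each library left out in turn, HCT116 calls over all genes ran from 0 to 533 higher and from 0 to 561 lower, with 0 without either control library. HCT116 members ran from 0 to 2 higher and from 0 to 4 lower. NCI-H716 calls ran from 37 to 482 higher and from 5 to 924 lower, with the highest counts without Z325 replicate 1, and NCI-H716 members from 0 to 1 higher and from 0 to 2 lower. The difference between the lines ran from 0 to 17 higher and from 0 to 23 lower, with 0 to 1 member lower, FDFT1 without HCT116 Z325 replicate 1. The lone library of a group was then assumed to vary like the others. Fold changes that turned in these fits ran, in HCT116, from −0.030 to 0.77 for HMGCS1, −1.45 to 0.039 for CYP51A1, −0.023 to 0.071 for STARD4 and −0.19 to 0.032 for ELOVL6. In NCI-H716 they ran from −0.053 to 0.14 for IDI1, −0.073 to 0.14 for LSS, −0.014 to 0.21 for TM7SF2, −0.58 to 0.19 for MSMO1, −0.15 to 0.027 for NSDHL, −0.31 to 0.18 for SC5D, −0.33 to 0.11 for DHCR7, −0.16 to 0.39 for SREBF2, −0.17 to 0.20 for ACLY, −0.53 to 0.24 for ACSS2, −0.11 to 0.28 for SCD and −0.56 to 0.088 for ELOVL6. In the difference between the lines they ran from −0.14 to 0.28 for ACAT2, −0.074 to 0.74 for HMGCS1, −0.52 to 0.19 for FDPS, −0.18 to 1.37 for CYP51A1 and −0.51 to 0.16 for ELOVL6.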
